A study of Mus musculus with 27 samples.

Results

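Rbm45, an RNA-binding protein gene that lies 665 kb from Nfe2l2 on mouse chromosome 2, was measured together with 8 other genes of the same stretch of that chromosome in the developing and adult mouse esophagus. Nfe2l2 is the gene that encodes the transcription factor Nrf2 and is the gene disrupted in the Nrf2-/- mice. The 9 genes, Rbm45, Hnrnpa3, Agps, Ttc30a1, Ttc30b, Prkra, Fkbp7, Plekha3 and Pde1a, were found by gene name among the non-control probes of the arrays and account for 9 of 28146 named genes and 20 of 41174 probes. They were selected by their place near Nfe2l2 and by their ratios in mice without Nrf2 and over the stages, which were already known, so the values of Nrf2-/- and Nrf2-/-Keap1-/- mice and of the developmental stages are given as descriptions, without a test. The comparison of Keap1-/- with wild type was not used in choosing them, although its wild-type arrays also belong to comparisons that were.

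The study used 27 Agilent 2-colour arrays, 3 in each of 9 groups. Wild-type C57BL/6J esophagus was collected at embryonic days E11.5 and E15.5, at birth (P0) and at postnatal day 7 (P7), and at P7 there were also Nrf2-/-, Keap1-/- and Nrf2-/-Keap1-/- mice, labelled as on the C57BL/6J background (the methods give C57BL). The adult groups, wild type and Nrf2-/- at 8 weeks, were esophageal epithelium and not whole esophagus. The mutants are germline knockouts whose lines came from RIKEN, whereas the wild-type mice were bought from the Jackson Laboratory, so genotype and source of the mice cannot be told apart. On every array the esophageal RNA was labelled with Cy5 and a universal mouse reference RNA from cell lines with Cy3, and each value below is a log2 ratio of Cy5 over Cy3, averaged over the probes of a gene. The ratio compares 1 gene between samples and cannot be used to set the level of 1 gene against another. The 3 arrays of a group are labelled as biological replicates. At E11.5 replicate 3, and at E15.5 replicate 1, stood apart from the other arrays of their age, so stage values that rest on them are given with and without both. Spread is given as the SD over them, and the error of a difference as the SE of the limma fit, a linear model with the variance of each gene moderated over all genes.

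Nrf2 is held in the cytoplasm and marked for degradation by Keap1, an adaptor of a ubiquitin ligase, and it activates genes of antioxidant defence and detoxification when Keap1 is inactivated. Mice without Keap1 develop a thickened, heavily keratinised esophageal epithelium, and this does not occur when Nrf2 is absent as well. The 9 genes have no common function. Rbm45 and Hnrnpa3 encode RNA-binding proteins, the latter of the heterogeneous nuclear ribonucleoprotein (hnRNP) family, and Prkra encodes a double-stranded RNA-binding protein that activates the kinase PKR. Agps encodes a peroxisomal enzyme of ether lipid synthesis, Ttc30a1 and Ttc30b subunits of the intraflagellar transport complex B of cilia, Fkbp7 a peptidyl-prolyl isomerase of the endoplasmic reticulum, Plekha3 a phosphoinositide-binding protein of the Golgi, and Pde1a a calmodulin-dependent phosphodiesterase.

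In the GRCm38 build Nfe2l2 occupies chr2:75675513-75704663 on the minus strand. Hnrnpa3 lies at chr2:75659105-75669407, and its end is 6.1 kb from that of Nfe2l2. On the other side follow Agps at 128 kb, Ttc30b at 232 kb, Ttc30a1 at 277 kb and Rbm45, at chr2:76369959-76383768. Beyond Rbm45 lie Prkra at 944 kb, Fkbp7 at 968 kb and Plekha3 at 971 kb, the starts of the last pair 2207 bases apart. Pde1a is much farther, at 4492 kb, all counted between gene starts (for Ttc30b, whose strand is not in the table, to its middle). Between Nfe2l2 and Rbm45 the RefSeq annotation holds 13 genes, of which 6 are protein coding and 5 are on the array.

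The values of Rbm45 rest on 1 probe, printed here because most of the description turns on it. It begins at base 1549 of the transcript and its 60 bases are spread over 2949 bases of the genome (mm9, chr2:76218588-76221536), so it crosses a splice junction. The second line is the probe of Hnrnpa3 whose ratio moved against those of the other 3 Hnrnpa3 probes in Keap1-/- mice (mm9, chr2:75500015-75500074).
Rbm45 probe: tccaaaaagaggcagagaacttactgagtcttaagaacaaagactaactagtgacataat
Hnrnpa3 probe: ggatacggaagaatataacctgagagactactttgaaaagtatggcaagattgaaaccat

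The promoters of Rbm45 and of Hnrnpa3, the closest gene to Nfe2l2, were read from RefSeq (GRCm38.p6; 250 bases before to 50 after the transcript start of that table, plus strand for both) to show how they differ in sequence. That start lies 25 bases downstream of the gene start given above for Rbm45 and 154 bases downstream for Hnrnpa3. The first is at chr2:76369734-76370033 and the second at chr2:75659009-75659308. Both strands were searched for TGACNNNGC, the core of the antioxidant response element that Nrf2 binds. They were also searched for GGGCGG, known as the GC box, for the CCAAT box, spelled by its name, and for TATAAA, the usual form of the TATA box. Matches on either strand are in capitals.
Rbm45 promoter: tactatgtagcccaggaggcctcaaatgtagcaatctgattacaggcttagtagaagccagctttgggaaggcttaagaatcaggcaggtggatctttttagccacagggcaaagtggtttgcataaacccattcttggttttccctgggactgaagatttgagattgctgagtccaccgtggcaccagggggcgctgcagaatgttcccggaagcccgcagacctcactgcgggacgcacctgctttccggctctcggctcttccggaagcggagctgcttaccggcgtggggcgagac
Hnrnpa3 promoter: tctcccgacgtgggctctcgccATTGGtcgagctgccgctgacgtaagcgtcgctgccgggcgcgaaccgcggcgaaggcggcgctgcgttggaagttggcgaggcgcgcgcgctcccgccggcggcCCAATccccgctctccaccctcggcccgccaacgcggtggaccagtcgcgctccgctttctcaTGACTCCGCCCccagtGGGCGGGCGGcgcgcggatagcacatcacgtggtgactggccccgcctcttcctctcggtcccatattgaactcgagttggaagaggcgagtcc
The Rbm45 window held none of the 4 motifs and 13 CpG dinucleotides, at a GC content of 55.3%. The Hnrnpa3 window held 44 CpG dinucleotides at a GC content of 70.3%, matches to GGGCGG and CCAAT, and 1 match to TGACNNNGC, which overlaps a GGGCGG match on the other strand. Of 32851 promoters of this length, 12.4% hold TGACNNNGC, 35.7% GGGCGG, 37.4% CCAAT and 13.6% TATAAA. Of the 8 members with a promoter in the table (Ttc30b has none), 1 held TGACNNNGC.

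The disrupted gene was examined first. The mean of the 3 Nfe2l2 probes was −0.26 ± 0.28 (SD, n = 3) in wild type at P7, −3.89 in Nrf2-/- and −4.12 in Nrf2-/-Keap1-/-, and 0.98 in wild-type against −3.32 in Nrf2-/- adult epithelium. All Nrf2-/- arrays therefore lay below all arrays of their wild type. Probe A_51_P411271 was not well above background on the 3 Nrf2-/- arrays at P7. Probe A_52_P523835, 16 kb away from the others, differed by only −0.13 ± 0.21 from wild type (SE from the variance of both groups, without limma). The Keap1 probe ran from −0.26 to 0.64 on the Keap1-/- arrays and from 0.42 to 1.00 on the wild-type arrays, so these overlapped, while the Nrf2-/-Keap1-/- arrays at −0.50, −0.32 and −0.19 were all below wild type. Whether that probe lies in the deleted part of Keap1 is not given in the sources used here. Nqo1, a target gene of Nrf2 looked up after the values had been seen, ranged from 3.95 to 4.18 in Keap1-/- and from −1.96 to 0.45 in wild type at P7.

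Rbm45 was higher in every array from mice without Nrf2 than in any other array. At P7 its log2 ratio was −1.72, −1.66 and −1.57 in the wild-type arrays and 0.85, 1.13 and 0.98 in the Nrf2-/- arrays. Both groups were tight, and they lay far apart: the means were −1.65 ± 0.08 and 0.99 ± 0.14 (SD, n = 3), a log2 difference of 2.64 ± 0.10 (SE), or 6.24-fold. The Nrf2-/-Keap1-/- arrays read 0.95, 1.04 and 1.02, a difference of 2.66 ± 0.10 (6.30-fold) from the same wild-type arrays. On the slide that carried Nrf2-/-Keap1-/- replicate 1 and all 3 Nrf2-/- arrays at P7, the former differed from the mean of the latter by −0.04. The wild-type P7 arrays were alone on their slide, so genotype and slide cannot be told apart in these differences from wild type.

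The adult epithelium gave the same picture for Rbm45. Wild-type adult arrays read −1.56, −1.55 and −2.25, and Nrf2-/- adult arrays 1.03, 1.20 and 1.39. The difference was 2.99 ± 0.21 (SE), or 7.96-fold, and it was 3.36 among the 3 adult arrays scanned on 1 day (wild-type replicate 3 with Nrf2-/- replicates 1 and 2). The adult genotypes shared no slide, so genotype and slide cannot be told apart in adults either. Over the 9 arrays without Nrf2 the ratio ranged from 0.85 to 1.39 with a median of 1.03, and over the 9 P7 and adult arrays with Nfe2l2 from −2.25 to −1.55, which leaves a gap of 2.4 on the log2 scale. The size of the difference depended on how background was treated: the scanner software's processed signals and the deposited ratios both gave 3.61 at P7 for Nrf2-/- and for Nrf2-/-Keap1-/-, and 3.60 in adults.

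**Figure D1:**
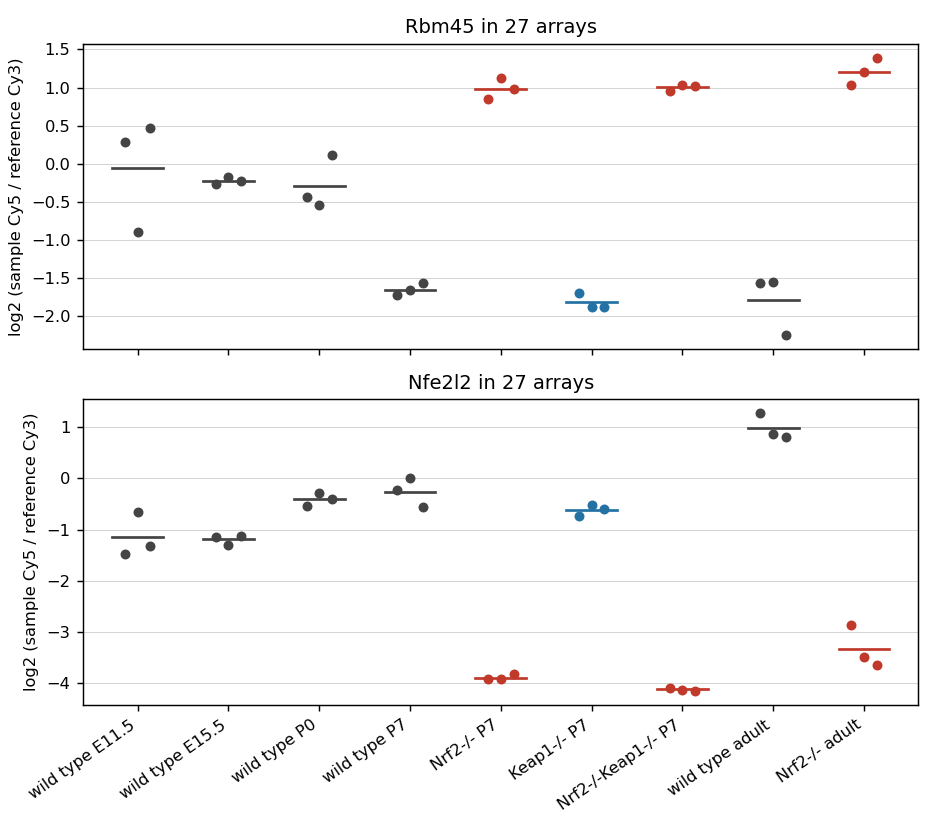
Log2 Cy5 over Cy3 (vertical axis) of Rbm45 and of Nfe2l2 on each of the 27 arrays, by group, with a bar at the mean of 3 arrays; red marks groups without Nrf2, blue Keap1-/- and grey wild type. The 9 red Rbm45 points lie between 0.85 and 1.39, above every other Rbm45 point, where Nfe2l2 is lowest.

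Keap1-/- mice, which keep Nfe2l2, had Rbm45 at −1.69, −1.88 and −1.88, overlapping the wild-type arrays. The difference of −0.16 ± 0.10 (SE) was not called by limma (adjusted p = 0.216, 95% interval −0.38 to 0.05), and the adjusted p ran from 0.0617 to 0.802 over the alternative settings. Against Keap1-/-, the Nrf2-/-Keap1-/- arrays were higher by 2.82 ± 0.10, or 7.06-fold. The Rbm45 difference between mice without and with Nrf2 was therefore measured at P7 with Keap1 present (2.64) and absent (2.82). These measurements share no array. For the value of 2.82 the compared groups also differed in slide and in scan day. Whether the loss of Nrf2 itself gives rise to the difference was not tested.

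By size of increase, Rbm45 ranked 4th of 19074 genes tested in Nrf2-/- against wild type at P7. In that comparison 3 genes, or 0.0157% of those tested, had an adjusted p of 0.05 or lower, namely Nfe2l2 with −3.63, Rbm45 with 2.64 and the urothelial gene Upk3a with −1.45, the last named after its value was seen. In Nrf2-/-Keap1-/- against wild type it ranked 15th of 19074 genes by increase, and 7th among the increases of the 82 genes that were called (0.43%). In adult epithelium it ranked 2nd of 18066 genes and 1st among those of the 90 called (0.498%) that were higher. These ranks and calls belong to the comparisons by which Rbm45 was chosen, so they are given as a description and not as a test of it.

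In wild-type development Rbm45 was higher before birth and at birth than at P7. It read 0.28, −0.90 and 0.47 at E11.5, −0.27, −0.17 and −0.22 at E15.5, and −0.44, −0.54 and 0.12 at P0. Those 9 arrays lay between −0.90 and 0.47, above all P7 and adult wild-type arrays and below all arrays without Nrf2. From P0 to P7 Rbm45 was lower by 1.37 ± 0.30 (SE), 2.58-fold, and by 2.21 with processed signals or deposited ratios, and the 3 P7 arrays were all below the 3 P0 arrays. From P7 to adult the difference was −0.13 ± 0.20 (−0.17 to 0.78 over the alternative settings) and the arrays overlapped. Nfe2l2 was lowest before birth and highest in adults, with means of −1.15, −1.19, −0.40, −0.26 and 0.98 at E11.5, E15.5, P0, P7 and in adult epithelium. Nfe2l2 and Rbm45 did not change at the same steps. From E15.5 to P0 Nfe2l2 differed by 0.79 and Rbm45 by −0.07, and from P0 to P7 Nfe2l2 differed by only 0.14. Ordered by mean ratio, Rbm45 ran from Nrf2-/- adult (1.21), Nrf2-/-Keap1-/- (1.00) and Nrf2-/- at P7 (0.99) through E11.5 (−0.05), E15.5 (−0.22) and P0 (−0.29) to wild-type P7 (−1.65), wild-type adult (−1.79) and Keap1-/- (−1.82). Neighbours in this order overlapped in their arrays within each of these 3 sets and not between them. Without E11.5 replicate 3 and E15.5 replicate 1 the E11.5 mean was −0.31 and the E15.5 mean −0.19, so that E11.5 moved below E15.5 and P0, and the Nfe2l2 means were −1.06 and −1.21.

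At P7 the other 8 genes differed little from wild type in the mice without Nrf2. In Nrf2-/- at P7 all 8 had differences between −0.13 (Ttc30a1) and 0.14 (Fkbp7), and the arrays of the groups overlapped for each of the 8. Of the 9 members 1, Rbm45, did not overlap, beside 16.4% of all genes. Hnrnpa3, the nearest gene, read 0.35, 0.26 and 0.27 in wild type and 0.17, 0.36 and 0.21 in Nrf2-/-, a difference of −0.05 ± 0.10 (SE). This is a mean over probes that disagreed in direction, with 0.20, −0.37, 0.17 and −0.20. Agps, next on the other side of Nfe2l2, differed by 0.11 ± 0.11.

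In Nrf2-/-Keap1-/- against wild type the 8 genes again differed by small amounts, from −0.18 ± 0.15 for Plekha3 to 0.25 ± 0.12 for Ttc30b. The Ttc30b arrays (1.28, 1.21 and 1.43) were all above wild type (1.19, 0.83 and 1.15) and the Hnrnpa3 arrays (0.24, 0.11 and 0.16) all below, so that with Rbm45 3 of 9 members did not overlap, beside 21.6% of all genes. The Hnrnpa3 probes again disagreed in direction, with 0.28, −0.44, −0.06 and −0.27.

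In adult epithelium 7 of the 8 differed by less than 0.45 and Pde1a by 0.48 ± 0.19 (SE). These differences varied over the alternative settings. Hnrnpa3 ran from −0.17 to 0.75, Agps from 0.18 to 1.12, Ttc30a1 from −0.24 to 0.99 and Ttc30b from −0.58 to 0.43. Prkra ran from −0.13 to 0.24, Fkbp7 from 0.07 to 1.1, Plekha3 from −0.13 to 0.98 and Pde1a from 0.28 to 0.84. With each spot's own local background limma called 2 of the 9 members higher, Rbm45 included. Agps, at 0.96, 0.42 and 0.47 in wild type and 1.09, 0.96 and 1.12 in Nrf2-/-, had all its mutant arrays above wild type, as had Prkra and Plekha3, while Ttc30b was all below. With Rbm45, 5 of 9 members did not overlap, beside 22.7% of all genes. Markers of striated muscle (Acta1, Ckm, Myh1, Myh2, Tnnt3 and Des, all 6 well above background) were higher in Nrf2-/- as well, with mean ratios of 2.17 to 3.17 in Nrf2-/- and 1.37 to 2.16 in wild-type adults, and of 4.61 to 4.63 and 3.64 to 4.55 at P7. In Nrf2-/-Keap1-/- at P7 the striated muscle markers were at 4.35 to 4.56, which overlapped wild type. The 4 markers of blood and immune cells were at −0.15 to 0.03 in Nrf2-/- and −0.65 to −0.21 in wild-type adults. At P7 the 3 endothelial markers were at 2.52 to 2.74 in Nrf2-/- and 2.72 to 2.75 in Nrf2-/-Keap1-/-, above the 2.06 to 2.43 of wild type. In Nrf2-/-Keap1-/- smooth muscle markers were at 2.85 to 3.14 against 3.29 to 3.69 in wild type, those of blood and immune cells at 0.17 to 0.25 against 0.33 to 0.45, and those of neurons and glia (4 of 5 well above background) at 2.25 to 2.28 against 1.42 to 2.24. All markers of the other lists were well above background on these arrays. The part of these cells in the values of the 9 genes was not tested. The median difference of the 9 genes was −0.01 in Nrf2-/- at P7, 0.09 in Nrf2-/-Keap1-/- and 0.32 in adult Nrf2-/-, and that of all genes tested was 0.00, 0.00 and 0.02.

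**Figure D2:**
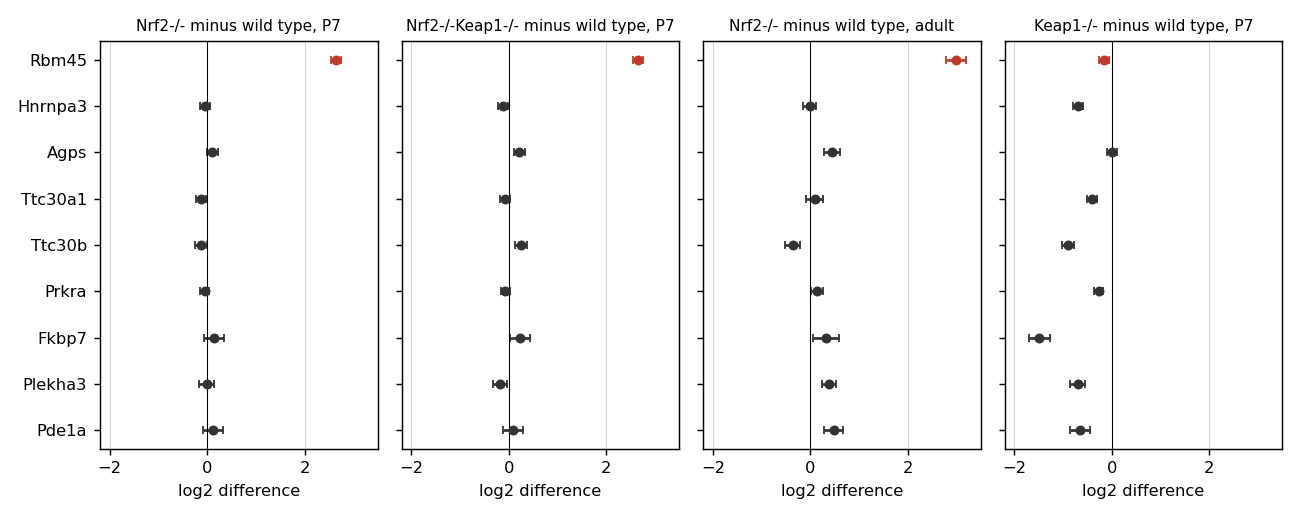
Log2 difference (horizontal axis) of each of the 9 genes in the genotype comparisons, with bars of 1 SE of the limma fit. Rbm45 lies at 2.64, 2.66 and 2.99 in the comparisons of mice without Nrf2 with wild type, while the other genes stay within 0.48 of 0, and in Keap1-/- the lowest value is that of Fkbp7, −1.49.

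The array holds 147 genes within 10 Mb of Nfe2l2, and they were set against distance. Of the genes in the window that are not members, limma called 0 of 103 at P7 in Nrf2-/- and in Nrf2-/-Keap1-/- against wild type and 0 of 89 in adults, with 17, 22 and 17 of them at an unadjusted p of 0.05 or lower. Over all genes 0.0157%, 0.43% and 0.498% were called. An unadjusted limma p of 0.05 or lower was found for 2042 and 3322 of 19074 genes at P7 and 3046 of 18066 in adults. With Rbm45 included, 4, 7 and 3 of the tested genes in the window had a log2 difference of 1 or more. Pde11a, whose start is 634 kb from that of Nfe2l2 and which is among the nearest neighbours of Rbm45 (named after its value was seen), differed by 0.04 ± 0.08 in Nrf2-/- at P7.

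**Figure D3:**
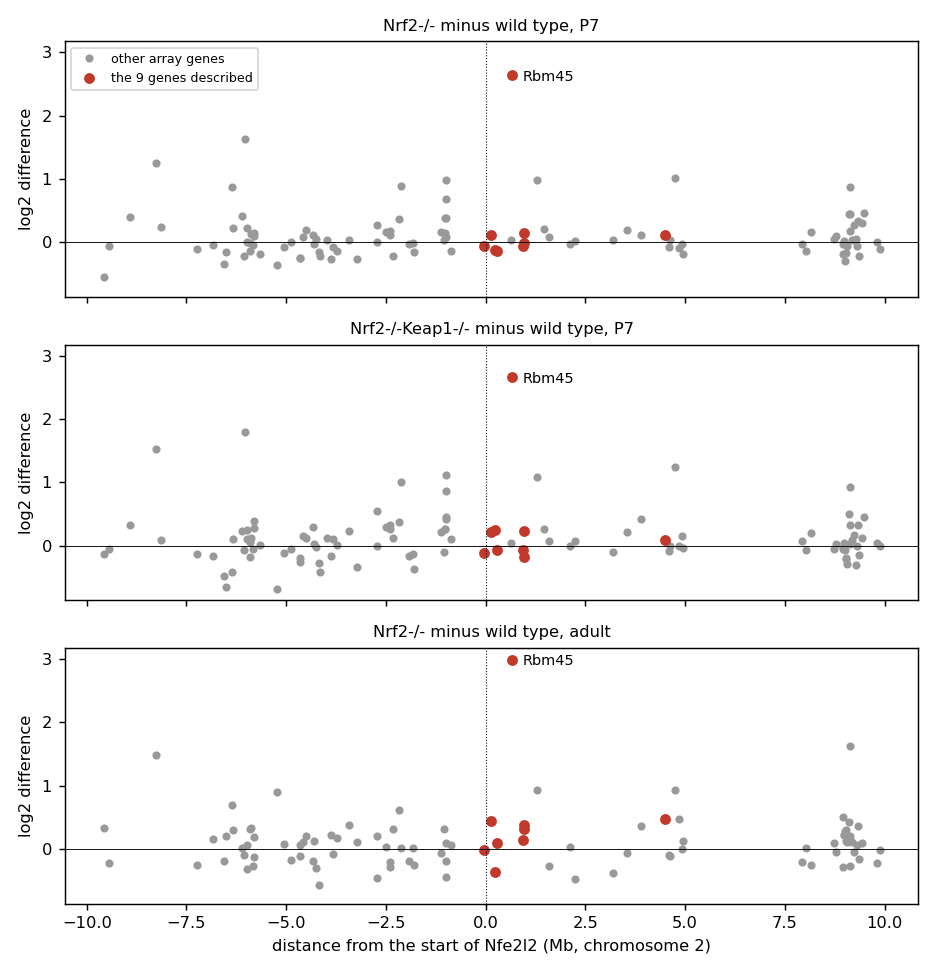
Log2 difference from wild type (vertical axis) of the array genes within 10 Mb of Nfe2l2, against the distance of their start from that of Nfe2l2. Rbm45, 665 kb away, lies at 2.64, 2.66 and 2.99 in the comparisons of mice without Nrf2, and Hnrnpa3, the nearest member, at −0.05 in Nrf2-/- at P7.

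Loss of Keap1 alone was not used in choosing the genes, although the wild-type P7 arrays were. In Keap1-/- against wild type at P7, 7 of the 9 genes were lower at an adjusted p of 0.05 or lower and none was higher. Over all 19074 genes tested 33.3% were called, 17.9% as lower and 15.4% as higher. The median difference of the 9 was −0.65, and that of all genes −0.02. For 6 of the 9 all Keap1-/- arrays were below all wild-type arrays, which held for 24.4% of all genes. Whole-esophagus RNA cannot tell fewer cells of a type from less RNA per cell.

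Fkbp7, the isomerase of the endoplasmic reticulum, fell the most. It read −0.31, −0.71 and 0.12 in wild type and −1.51, −1.91 and −1.94 in Keap1-/-, a difference of −1.49 ± 0.21 (SE), 2.81-fold (limma, adjusted p = 0.000486). Ttc30b, of the ciliary transport complex, went from 1.19, 0.83 and 1.15 to 0.30, 0.19 and −0.01. Its difference was −0.90 ± 0.12 (limma, adjusted p = 0.000306), and its probes share 40 bases, so they are not separate measurements. Ttc30a1, its paralogue, was lower by 0.41 ± 0.10 (limma, adjusted p = 0.013). The probes of Ttc30a1 may also bind transcripts of Ttc30a2, a near-identical copy, so that value is uncertain.

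Plekha3, the Golgi protein gene that starts next to Fkbp7, changed by −0.70 ± 0.15 (limma, adjusted p = 0.00509). Its probes read −0.31 and −1.09. Hnrnpa3 changed by −0.69 ± 0.10 (limma, adjusted p = 0.000628), and its probes disagreed in direction, with −1.34, −0.75 and −0.96 for 3 of them and 0.29 for the one printed above. Pde1a changed by −0.65 ± 0.20 (limma, adjusted p = 0.0301), with overlapping arrays. Prkra changed by −0.27 ± 0.09 (limma, adjusted p = 0.0414), and 1 of its probes was not well above background on any array. Agps, at −0.79 in both groups, did not change detectably (0.00 ± 0.11, limma, adjusted p = 0.999, 95% interval −0.24 to 0.24).

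The call of Ttc30b was kept under all alternatives tried, and that of Fkbp7 under all in which it was tested (with outlier-flagged spots left out it had too few values). The others were not kept under all. With median centring in place of loess, Hnrnpa3 (−0.15, adjusted p = 0.415), Ttc30a1 (−0.24, adjusted p = 0.216), Plekha3 (−0.30, adjusted p = 0.208) and Pde1a (−0.44, adjusted p = 0.075) lost their limma call. With all 27 arrays in 1 limma fit, Ttc30a1 (adjusted p = 0.143) and Pde1a (adjusted p = 0.219) lost it. Pde1a also lost it without wild-type replicate 1 (adjusted p = 0.108), wild-type replicate 3 (adjusted p = 0.103), Keap1-/- replicate 2 (adjusted p = 0.101) or Keap1-/- replicate 3 (adjusted p = 0.0956) in limma. Prkra lost it with no background correction (−0.21, adjusted p = 0.109), with the replicate number as a block (adjusted p = 0.0659), and when any of the 12 P7 arrays other than wild-type replicate 2 and Keap1-/- replicate 1 was left out (adjusted p from 0.0507 to 0.142).

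The 3 Keap1-/- arrays were alone on their slide and their scan day, so genotype and slide cannot be told apart in this comparison. Markers of fibroblasts moved with it: the mean ratio of Col1a1, Col1a2, Col3a1, Dcn and Lum was 0.78 to 1.28 on the Keap1-/- arrays, 2.29 to 2.69 in wild type and 2.47 to 2.74 in Nrf2-/-Keap1-/-. Smooth muscle markers were at 2.31 to 2.92 against 3.29 to 3.69 in wild type. The 4 markers of blood and immune cells were at −0.19 to 0.10 against 0.33 to 0.45. All markers of these lists were well above background on these arrays, and the part of these cells in the changes above was not tested. Striated muscle markers (4.44 to 4.97 against 3.64 to 4.55) and those of squamous epithelium (4.01 to 4.25 against 3.76 to 4.25) overlapped or were higher.

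**Figure D4:**
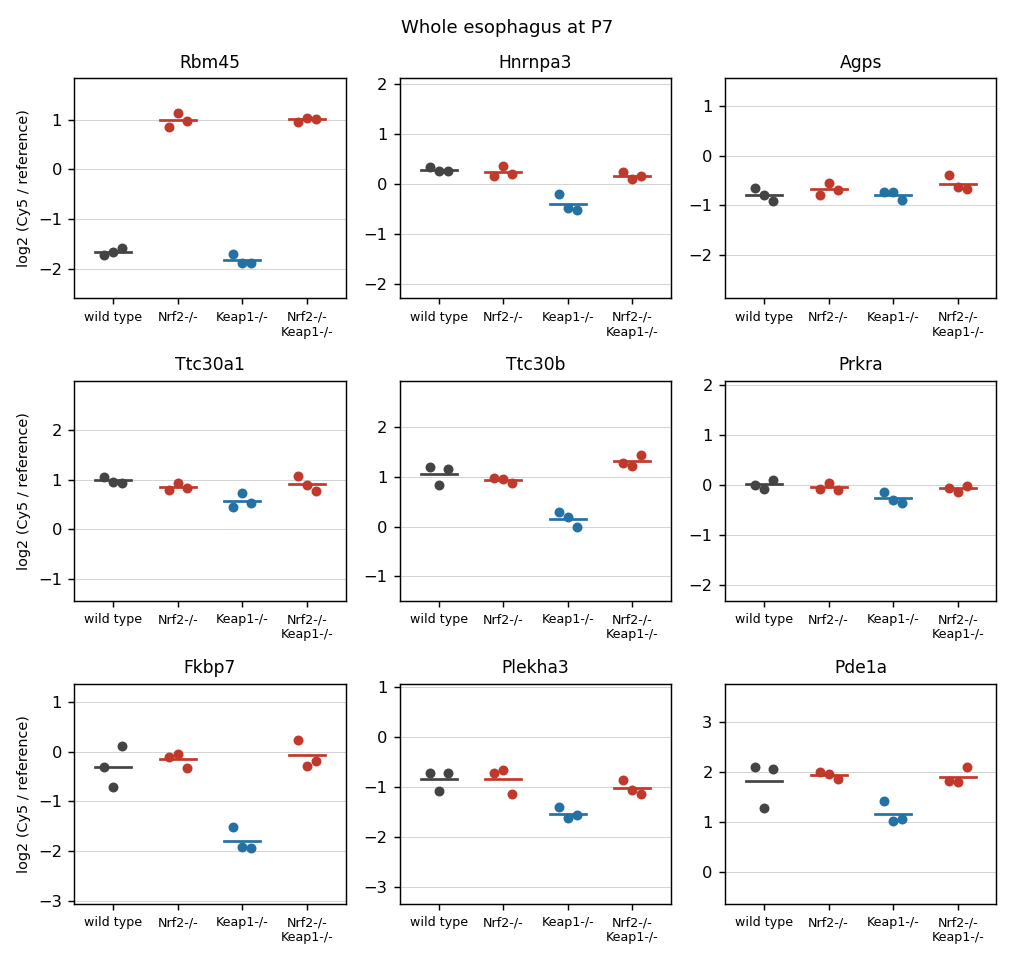
Log2 Cy5 over Cy3 (vertical axis) of the 9 genes on the 12 P7 arrays in wild type, Nrf2-/-, Keap1-/- and Nrf2-/-Keap1-/-, with a bar at the mean of 3 arrays. Rbm45 is high in both groups without Nrf2, whereas Fkbp7, Ttc30b, Hnrnpa3 and Plekha3 are lowest on the Keap1-/- arrays.

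In the mice that lacked both genes, 7 of the 8 genes other than Rbm45 were higher than in Keap1-/- on all arrays, as was Rbm45 itself, beside 26.5% of all genes. This comparison shares the Keap1-/- arrays with the one above, so genotype, slide and scan day cannot be told apart in it either. It shares the Nrf2-/-Keap1-/- arrays with a comparison used in choosing the genes, so it is given as a description. Fkbp7 read 0.24, −0.28 and −0.18, higher than in Keap1-/- by 1.72 ± 0.21 (SE), and Ttc30b was higher by 1.14 ± 0.12. Hnrnpa3 was higher by 0.57 ± 0.10, and Agps by 0.22 ± 0.11. For all 8 genes other than Rbm45 the Nrf2-/-Keap1-/- mean was within 0.25 of the wild-type mean.

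The Keap1-/- comparison was also read for the other genes of the same stretch. Of the 112 tested genes within 10 Mb of Nfe2l2, 32 were called in Keap1-/- against wild type (28.6%, beside 33.3% of all genes), 26 lower and 6 higher, and 25 of them are not members. The 26 include the 7 members called lower, and over all genes 17.9% were lower and 15.4% higher. Among those not members the largest differences were those of Spc25, a kinetochore gene, with −1.57 (limma, adjusted p = 0.00716), of the transcription factor gene Sp5 with −1.46 (adjusted p = 0.0301) and of the homeobox gene Hoxd4 with 1.44 (adjusted p = 0.000214). Smtnl1 followed with 1.33 (adjusted p = 0.0304) and Mettl5 with −0.94 (adjusted p = 0.00161), also by limma.

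Genes that work with the members were counted from lists of their complexes and families. In Nrf2-/- and Nrf2-/-Keap1-/- against wild type at P7 and in adult Nrf2-/-, limma called 0 of the 46 tested genes of these lists. Of all genes 0.0157%, 0.43% and 0.498% were called. An unadjusted limma p of 0.05 or lower was found for 5, 11 and 3 of the 46. Over all genes this was so for 2042 and 3322 of 19074 at P7 and 3046 of 18066 in adults. In Keap1-/- 18 of the 46 were lower and 3 higher, with a median of −0.28. The counts below stand beside 17.9% of all genes lower and 15.4% higher, with a median of −0.02. Of 12 tested genes of the intraflagellar transport complex B, to which Ttc30a1 and Ttc30b belong, 6 were lower and none higher. They were led by Ift74 with −1.30 (limma, adjusted p = 8.95e-05) and Ift57 with −0.78 (limma, adjusted p = 0.00253), and the median of the 12 was −0.31.

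Of 12 tested hnRNP genes 5 were lower and 1 higher in Keap1-/-, with a median of −0.37. Hnrnpa0 was higher by 1.24 (limma, adjusted p = 0.000898) and Hnrnph1 changed by −0.94 (limma, adjusted p = 9.31e-05). Among 10 FK506-binding protein genes, the family of Fkbp7, 3 were lower and 1 higher, with Fkbp5 at 1.36 (limma, adjusted p = 0.00257) and Fkbp9 at −1.07 (limma, adjusted p = 0.000542). Of 5 genes of ether lipid synthesis and peroxisome import, with a median of −0.03, 2 were lower, Far1 at −0.89 (limma, adjusted p = 0.0011) and Tmem189 at −0.38 (limma, adjusted p = 0.0447). Of the 4 genes of double-stranded RNA response and processing, Eif2ak2, which encodes PKR, was at −0.57 (limma, adjusted p = 0.0188) and Dicer1 at 0.41 (limma, adjusted p = 0.0114). Of the paralogues, Pde1c was at −0.42 (limma, adjusted p = 0.0138), Pde1b at −0.06, and Plekha8 at 0.20 (limma, adjusted p = 0.357).

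Genes with a pattern most like that of Rbm45 were found by Pearson correlation over the 18 P7 and adult arrays, among 18158 genes. These points share groups, slides and a reference, so the coefficients are a description. The highest were Bmpr1b (0.84), Steap4 (0.82), Mgl2 (0.82), Lrrc55 (0.81) and Cops4 (0.81), and the lowest Nfe2l2 (−0.95), Pds5a (−0.87) and Nop56 (−0.87). In Nrf2-/- the 5 highest differed from wild type by 0.18 to 0.58 at P7, and in adults by 0.33 to 1.49 for the 4 that were tested (Lrrc55 was not), beside 2.64 and 2.99 for Rbm45. The other members had coefficients with Rbm45 from 0.13 for Ttc30a1 to 0.50 for Plekha3.

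Across wild-type development the other members followed several courses. The distance of E11.5 replicate 3 and E15.5 replicate 1 from their own ages was seen in Ttc30b, which read 0.79, 1.01 and 1.93 at E11.5 and 1.00, 2.34 and 1.70 at E15.5. With all arrays limma called 0 of 19718 genes from E11.5 to E15.5 (321 at an unadjusted p of 0.05 or lower), and without both arrays 2676, or 13.8%. The labels were kept as given.

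From E11.5 to E15.5 the members with the largest differences were Ttc30b (0.44 with all arrays, 1.12 without both), Fkbp7 (0.38 and 1.12) and Pde1a (−0.32 and −1.21). Rbm45 differed by −0.17 and 0.11. From E15.5 to P0 the P0 arrays were all below the E15.5 arrays for 3 of 9 members, Hnrnpa3, Ttc30a1 and Prkra, beside 21% of all genes. Without both arrays this was so for 5 of 9, Fkbp7 and Ttc30b included, beside 27.7% of all genes. Ttc30a1 went from 2.89, 2.25 and 1.95 to 1.08, 1.18 and 1.1, lower by 1.25 ± 0.25 (SE) and by 0.98 without both arrays. From P0 to P7 the P7 arrays were all below for 3 of 9 members, Rbm45, Ttc30a1 and Ttc30b, beside 13.6% of all genes. Ttc30a1 was lower by 0.13 and Ttc30b by 0.29, beside the 1.37 of Rbm45.

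From P7 to adult the change in tissue is part of the comparison, from whole esophagus to epithelium. Fibroblast markers went from 2.29 to 2.69 down to 0.07 to 0.73, neuron and glia markers from 1.42 to 2.24 down to −0.11 to 0.07, and striated muscle markers from 3.64 to 4.55 down to 1.37 to 2.16. Smooth muscle markers went from 3.29 to 3.69 down to 2.37 to 2.53, endothelial markers from 2.06 to 2.43 down to 0.88 to 1.48, and those of blood and immune cells from 0.33 to 0.45 down to −0.65 to −0.21. Their part in the values of the members was not tested. Of the 9 members 3 had all adult arrays above all P7 arrays and 4 had them below, so that 7 of 9 did not overlap, beside 56% of all genes. Agps read −0.65, −0.79 and −0.92 at P7 and 0.96, 0.42 and 0.47 in adults, a difference of 1.40, Ttc30a1 was higher by 0.92 and Ttc30b by 0.69, which turned to −0.11 for Ttc30b with each spot's own local background. Fkbp7 was lower by 2.28, Pde1a by 2.08, Plekha3 by 0.58 and Hnrnpa3 by 0.46. Over the alternative settings Ttc30a1 ran from 0.02 to 1.08, Plekha3 from −0.89 to −0.06 and Hnrnpa3 from −0.60 to −0.02. Agps ran from 0.94 to 1.77, Fkbp7 from −2.30 to −2.03 and Pde1a from −2.87 to −1.78. Pde1a had one of the widest ranges over the wild-type stages, from a mean of 2.88 at E11.5 to −0.26 in adult epithelium. The arrays of Rbm45 (−0.13) and Prkra (−0.11) overlapped.

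**Figure D5:**
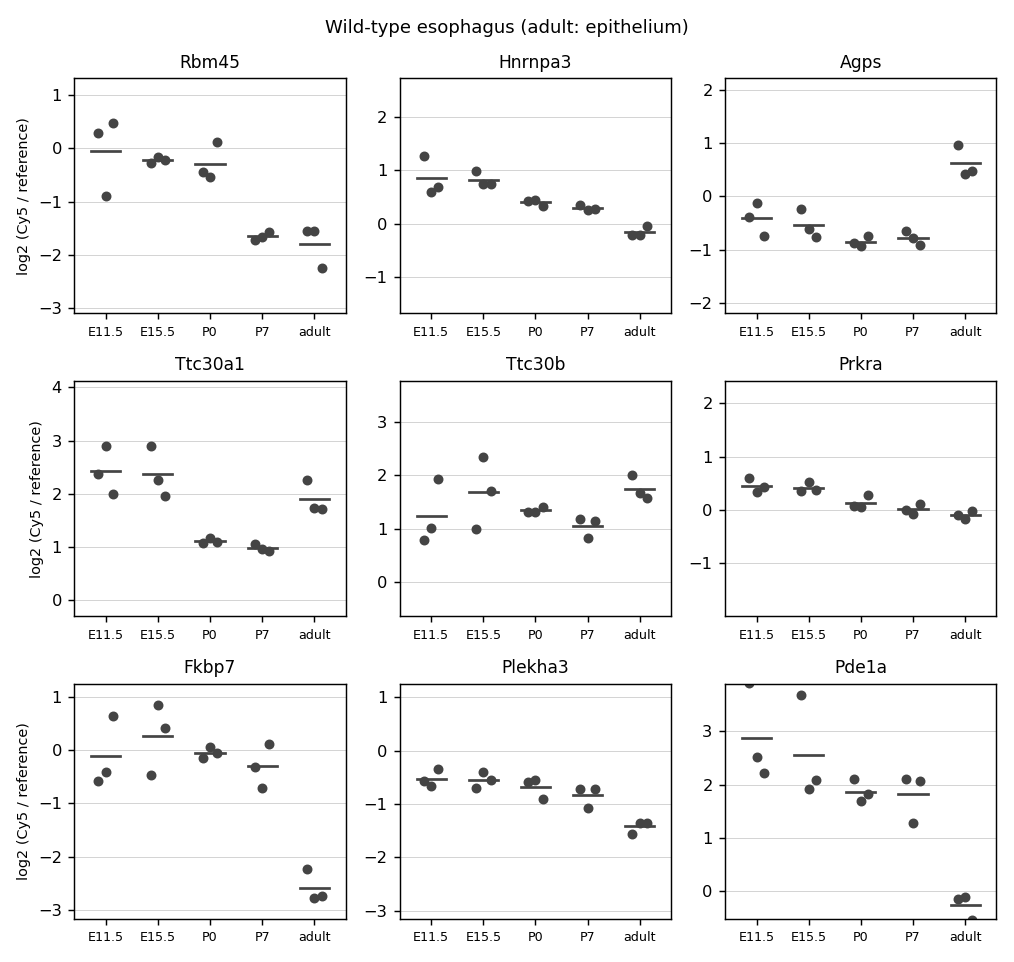
Log2 Cy5 over Cy3 (vertical axis) of the 9 genes on the 15 wild-type arrays from E11.5 to adult, with a bar at the mean of 3 arrays. Rbm45 drops between P0 and P7, Ttc30a1 between E15.5 and P0, Agps is highest and Fkbp7 and Pde1a lowest in adult epithelium.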

How the data were processed

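RNA of 27 mouse esophagus samples was hybridised with a Cy3-labelled universal mouse reference. The deposited scanner files hold red and green spot intensities from Agilent Feature Extraction (9.1 per the labels, 10.5.1.1 and 10.7.3.1 per the file headers). The deposited value table was found to hold log10 ratios of Cy5 over Cy3, which the authors made from the processed signals, and was used as an alternative. Here intensities were background-corrected by normexp (offset 50) and 43 spots (0.00367%) were left out, those whose local background exceeded 5 array medians, a rule taken up after the data had been seen. Loess within arrays gave log2 ratios, averaged over spots, probes and genes by the newer annotation, and outlier-flagged spots were kept. Genes well above background in Cy5 on 3 or more arrays and with 2 values in every group were fitted with limma 3.58.1 (R 4.3.3) and called where p, adjusted by Benjamini-Hochberg, was at most 0.05. The 4 P7 groups, the 4 whole-esophagus stages, the adult groups, and wild-type P7 with adult, were each fitted together. Per array, the median Cy5 intensity was 81.8 to 226, 58.9% to 69.3% of spots were well above background in Cy5 and 0.343% to 16.1% carried outlier flags. Only 3 arrays per group limit the precision, and p-values measure the spread between them. The fit was tested on simulated data.

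The 9 members and the lists of related genes were chosen with earlier results of these data known. Named genes are the members, Nfe2l2, Keap1, per genotype comparison up to 5 called window genes with the largest differences, 8 genes by correlation with Rbm45 and up to 2 per list. Promoters come from RefSeq (GRCm38.p6), and 19993 of 28146 gene names matched its annotation. Alternatives were other sources of the ratios, background corrections, normalisations, filters, probe summaries, blocks and left-out arrays.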

Additional observations from a re-analysis of the deposited data

How the results depend on the processing

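The value of Rbm45 in the comparisons of mice without Nrf2 varied with the setting. In Nrf2-/- at P7 it was 3.61 with processed signals and with deposited ratios, 2.77 with no background correction, 2.47 with median centring and 2.82 with scale normalisation between arrays. In Nrf2-/-Keap1-/- against wild type these were 3.61, 3.61, 2.79 and, with scale normalisation, 2.77. Against Keap1-/- they were 3.71 with processed signals and with deposited ratios, 3.05 with no background correction and 2.58 with median centring. In adults they were 3.60 with processed signals and with deposited ratios, 2.08 with each spot's own local background, 3.52 with median centring, 2.63 with scale normalisation and 3.36 with scan as a block. Ttc30b from P7 to adult turned from 0.69 to −0.11 with each spot's own local background.

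The number of genes called varied more. In Nrf2-/- at P7 it was 3, and 5 with processed signals, 6 with all 27 arrays in 1 fit, 9 with slide as a random block and 2 to 8 with 1 array left out. In Nrf2-/-Keap1-/- against wild type it was 82, and 4 with processed signals and with deposited ratios, 47 with no background correction, 37 with probes well above background in both channels, 185 with all arrays, 496 with slide as a random block and 5 to 274 with 1 array left out. In adult Nrf2-/- it was 90, and 58 without outlier-flagged spots, 35 with processed signals, 1667 with each spot's own background, 20 with median centring, 34 with deposited ratios, 512 with all arrays, 24 with slide as a random block, 42 with scan as a block and 16 to 189 with 1 array left out.

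From E11.5 to E15.5 the count was 0, or 0 to 1 with 1 array left out and 2676 without both doubtful arrays. From E15.5 to P0 it was 3881, with 1713 for own background and 2186 to 4324 for left-out arrays. From P0 to P7 it was 478, with 243 for own background, 930 with all arrays, 315 with slide, 1080 without both doubtful arrays and 201 to 585 for left-out arrays. From P7 to adult it was 7740, with 4160 for own background and 4321 with median centring. For the effect of Nrf2 loss in adults against that at P7 it was 19, with 8 without flagged spots, 1132 for own background, 34 with median centring, 10 with scale normalisation, 57 with all arrays, 9 with slide and 4 to 46 for left-out arrays. For the effect of Nrf2 loss without against with Keap1, left-out arrays gave 1874 to 3715.

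The replicate numbers were not treated as pairing the samples: same-numbered arrays deviated together with a correlation over 0.1 in no comparison for all 3 pairs (−0.43 to 0.61 from E11.5 to E15.5, −0.13 to 0.02 in adults). From P0 to P7 and in Nrf2-/-Keap1-/- against Keap1-/- the correlations came closest, at 0.10 to 0.32, so some pairing there is not excluded. With the replicate number as a block the adult count was 21, and Prkra lost its call in Keap1-/-, as given above. Scan could not be fitted as a block within the whole-esophagus stages or for Keap1-/-. The cause of these shifts was not tested. With 3 arrays per group and 58.9% to 69.3% of spots well above background, differences of the size of that of Prkra were at the limit of what could be called.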
